A study of Mus musculus with 28 samples.

Results

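The genes of the MHC class II antigen presentation pathway were followed through the pituitaries of 28 C57BL/6J mice, 16 females and 12 males. The members were chosen by name, as the rows of the count table for H2-Aa, H2-Ab1, H2-Eb1, Cd74, H2-DMa, H2-DMb1, H2-DMb2, H2-Oa, H2-Ob and Ciita, which are 10 of its 32594 genes. All 10 were found, and all 10 passed the filter on low counts in both sexes. The mice fall into 8 groups, which combine sex with paradoxical sleep deprivation (PSD) and restraint stress. PSD lasted 12 h on small platforms over water, and the pituitary was taken 18 h after its end. Restraint lasted 20 min in a Plexiglas restrainer, and the gland was taken 10 min after its end. Home cage controls had neither challenge, restraint mice had restraint alone, PSD mice had PSD alone, and PSD + restraint mice had both. Every mouse, controls included, was 8 weeks old on arrival and had been adapted to the platforms in short daily sessions, so no group was naive to them. Each female group held 4 mice. The male groups held 4 control, 2 restraint, 3 PSD and 3 PSD + restraint mice, and each library came from 1 mouse.

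MHC class II molecules present peptides taken up from outside the cell to CD4 T cells. H2-Aa and H2-Ab1 encode the alpha and beta chains of the I-A molecule and H2-Eb1 the beta chain of I-E. C57BL/6 mice make no I-E at the cell surface, because their alpha chain gene is defective. Cd74 encodes the invariant chain, which occupies the peptide groove until the molecule reaches the endosome. There H2-DM (H2-DMa with H2-DMb1 or H2-DMb2) exchanges its remnant for peptide, and H2-O (H2-Oa with H2-Ob) restrains H2-DM. Ciita encodes the transactivator that switches these genes on together and is itself induced by interferon gamma. The pathway is active in dendritic cells, B cells and activated macrophages, and a whole pituitary holds few of these cells among its hormone cells.

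The promoters of the pathway carry a shared module on which Ciita is recruited, with an X box bound by the RFX complex upstream of a Y box bound by NF-Y. RefSeq promoter windows (GRCm38.p6, from 250 bases before to 50 bases after the start) were read for 7 of the 10 genes, and not for H2-Ab1, Cd74 and Ciita. The module is shown here as a description of sequence, and not every gene read held it. The Y box was searched on both strands as TGATTGG, which contains the shorter core ATTGG, and the X box as CNNGNAAC. TGATTGG was found in 6 of the 7 genes and in 7.82% of all 32851 windows. An X box match followed on the same strand by TGATTGG, with starts 20 to 40 bases apart, was found in 5 of the 7 genes and in 0.164% of all windows, while ATTGG alone was in 37.4% and CNNGNAAC alone in 39.1%. TGATTGG and the spacing were chosen after these windows were read, so the shares are a description and not a test. The 4 stretches below overlap no annotated exon, run 5′ to 3′ on the strand of the gene, and have the X box and Y box matches in capitals.
H2-Aa: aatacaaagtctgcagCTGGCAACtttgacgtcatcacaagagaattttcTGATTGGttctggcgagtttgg
H2-Eb1: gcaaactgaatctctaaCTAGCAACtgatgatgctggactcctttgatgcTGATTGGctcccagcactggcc
H2-Ob: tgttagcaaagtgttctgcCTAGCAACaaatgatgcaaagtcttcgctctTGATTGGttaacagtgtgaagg
H2-DMb2: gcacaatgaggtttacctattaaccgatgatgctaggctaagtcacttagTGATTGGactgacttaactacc
They lie on chromosome 17 at chr17:34287852-34287923 on the minus strand for H2-Aa, and on the plus strand at chr17:34305756-34305827 for H2-Eb1, chr17:34238796-34238867 for H2-Ob and chr17:34145107-34145178 for H2-DMb2. The Y box began 50 bases before the start of H2-Aa, 61 before that of H2-Eb1, 59 before that of H2-Ob and 92 before that of H2-DMb2. For H2-DMb2 the RefSeq start lies downstream of the gene start in the annotation used for the counts, so its window falls inside the gene bounds given for it below. The starts of the X and Y boxes were 34 bases apart in H2-Aa, 33 in H2-Eb1 and 31 in H2-Ob. H2-DMb1 and H2-Oa also held the spaced pair, each with 34 bases between the starts, whereas H2-DMb2 held TGATTGG without a CNNGNAAC match at that spacing and H2-DMa held neither TGATTGG nor the pair. A match of letters is a description of the window and does not show that the site is bound in the pituitary.

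In position, 8 members lie together in the MHC on chromosome 17, from H2-Oa at 34092340 to 34095234 to H2-Eb1 at 34305867 to 34316674 (GRCm38, the build of the counts, with gene bounds from GENCODE M21). H2-Aa spans 34282744 to 34287823 on the minus strand, H2-Ab1 34257689 to 34269419, H2-DMa 34119541 to 34139101, H2-DMb2 34143307 to 34151555, H2-DMb1 34153072 to 34160230 and H2-Ob 34238903 to 34254414, all on the plus strand. Cd74 is on chromosome 18 (60803848 to 60812652) and Ciita on chromosome 16 (10480059 to 10528418), both on the plus strand. H2-DMb1 and H2-DMb2 are near copies of each other, so reads could be divided between them in a way the counts do not show. Exons of H2-DMa, H2-Oa and Ciita overlap exons of other genes on the opposite strand over 360, 321 and 329 bases. Whether the counting used the strand is not given in the sources used here.

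The level of the pathway fell into tiers, and the order of some genes depended on the exon lengths used. Levels are given as CPM, the count per 1000000 counts of the library, and between genes as CPM per kb of exon. On the scale of CPM per kb, the median over 28 mice was 63.6 for Cd74, 19.4 for H2-Eb1, 14 for H2-Ab1 and 13.4 for H2-Aa. The peptide exchange genes were lower, with medians of 3.32 CPM per kb for H2-DMb1, 2.10 for H2-DMa and 0.431 for H2-DMb2. Ciita stood at 0.269 CPM per kb and the H2-O chains at 0.229 for H2-Oa and 0.0818 for H2-Ob. The other neighbours in this order kept it in at least 27 of 28 mice, and the 2 close pairs were H2-Ab1 with H2-Aa (22 of 28 mice in this order) and Ciita with H2-Oa (20 of 28 mice). In plain CPM the order differed. Cd74 was still highest at a median of 106.8 CPM, but H2-Aa (50.8) stood above H2-Eb1 (37.7) and H2-Ab1 (36.0). H2-DMa (7.26) stood above H2-DMb1 (5.58), Ciita (2.56) above H2-DMb2 (0.753), and H2-Ob (0.440) above H2-Oa (0.323). H2-Oa rested on 1 to 22 counts per mouse and H2-Ob on 3 to 39, so differences in these 2 genes were detectable only where they were large. The defective I-E alpha chain gene is listed as H2-Ea-ps, whose mean was at or below 0.0081 CPM in every group, so H2-Eb1 RNA was present with almost none of its partner chain.

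**Figure D1:**
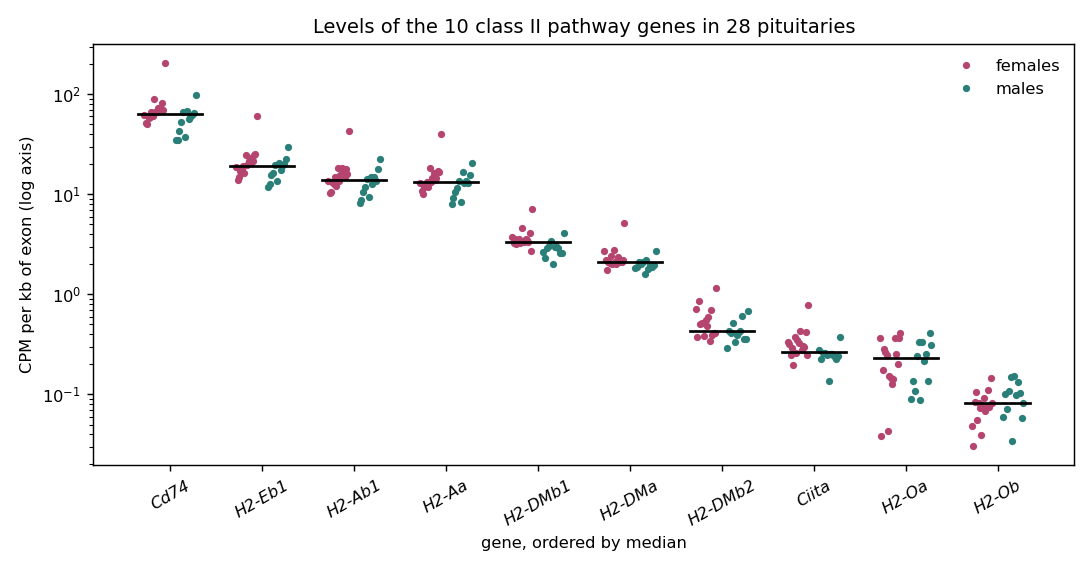
CPM per kb of exon (log axis) of the 10 genes in 28 mice, 1 point per mouse by sex, with black bars for the median over all mice. Cd74 has the highest median (63.6) and H2-Ob the lowest (0.0818), and the highest female point of every gene but H2-Ob is the same mouse, restrained female 4.

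The gland was sequenced to between 14024465 and 52948531 counts per mouse, with a median of 33389717, and Gh, Prl and Pomc, the main hormone transcripts of the pituitary, took 24.8% to 34.3% of them. Markers of cells that use class II were present at low levels. In female controls Csf1r, the macrophage growth factor receptor, was at 23.2 ± 1.48 CPM (SD, n = 4) and the dendritic cell marker Flt3 at 0.219 ± 0.113 CPM. In whole tissue, a lower level from fewer cells of a type and one from less RNA per cell cannot be told apart.

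One library stood apart in these genes and has to be described first. Restrained female 4 held the highest level of all 28 mice in 8 of the 10 genes, with 343.7 CPM of Cd74, 153 of H2-Aa, 119.2 of H2-Eb1 and 110.2 of H2-Ab1. The other 3 restrained females had 117 to 138 CPM of Cd74 and 55.1 to 64.5 of H2-Aa, and the next highest mouse of the series in Cd74, restrained male 3, had 164 CPM. Its level relative to the mean of the other 3 restrained females was 2.76-fold for Cd74, 2.51-fold for H2-Aa, 2.64-fold for H2-Ab1 and 2.57-fold for H2-Eb1. The accessory genes stood with them, at 2.42-fold for H2-DMa, 2.11-fold for H2-DMb1, 2.89-fold for H2-DMb2 and 2.43-fold for Ciita, while H2-Oa ranked 2 of 28 and H2-Ob 14 of 28. This mouse also had the highest level of all females in some genes outside the pathway. Relative to the median of the other females, Ptpn5 was 18.3-fold and Crhbp 7.53-fold, beside 3.12-fold for H2-Eb1 and 3.08-fold for Cd74. That median pools restrained and unrestrained mice. These ratios can therefore include a response to restraint, unlike the ratios to the other restrained females above. Ptpn5 was at 84.6 CPM against 1.31 to 78.9 in the other females, so it lay little above the highest of them. Crhbp was at 771 CPM against 4.70 to 338. Results in females that use the restraint group are therefore given with and without this mouse.

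The same mouse was high in MHC class I genes. The summed level of 10 class I pathway genes, which present peptides from inside the cell, was 1236 CPM in it and 797 to 984 CPM in the other 15 females, and H2-K1, H2-D1, Tap1, Tap2, Psmb9 and the class I transactivator Nlrc5 had their highest level of 28 mice there. Ifng, which encodes interferon gamma, had a median of 0 counts over the mice. Among 14 macrophage markers its summed level was 204 CPM, rank 3 of 28, against 151 to 217 in the other females, and Adgre1, C1qb, Fcer1g and Ptprc were at their highest of 28 mice. The summed level of 6 T and NK cell markers was the highest of all mice at 4.38 CPM, against 1.36 to 3.31 in the other females, with Cd3e and Nkg7 at their highest. The summed levels of dendritic cell markers (128 CPM, rank 13) and B cell markers (6.41 CPM, rank 21) were not, although Ccr7 of the dendritic list was at its highest there. Each summed level follows the most abundant genes of its list, so it says little about scarce markers such as Flt3. The part of these cells in the class II level of this mouse was not tested.

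Restraint alone in females was the comparison in which the restraint group held this mouse. H2-Eb1, H2-Aa and Cd74 had the smallest p. Controls had 38.2, 41.9, 44.8 and 39.6 CPM of H2-Eb1, and restraint mice 41.8, 47.8, 49.7 and 119 CPM. For H2-Aa controls had 50.7, 55.3, 61.7 and 52.3 CPM and restraint mice 55.1, 64.5, 63.4 and 153 CPM, and the groups overlapped in both genes. For Cd74 controls had 112, 111, 122 and 123 CPM and restraint mice 118, 138, 117 and 344 CPM, again with overlap.

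All 10 genes had a higher fitted level after restraint in females, where 52.7% of all 18059 genes tested did, with a median log2 fold change of 0.48 against 0.0094 over all genes. None was called in edgeR's quasi-likelihood test, where a call needs both an adjusted p no higher than 0.05 and a log2 change no smaller than 0.322 up or down, and 0.543% of all genes were called. At an unadjusted p under 0.05 there were 3 members, all higher (5.6% of all genes), and DESeq2 called none. The log2 fold change was 0.66 ± 0.25 (SE) for H2-Eb1 (edgeR adjusted p = 0.376), 0.62 ± 0.25 for H2-Aa (adjusted p = 0.41) and 0.63 ± 0.27 for Cd74 (adjusted p = 0.447). Without restrained female 4, 7 of 10 genes were higher with a median of 0.0657, and the changes were 0.18 ± 0.12 for H2-Eb1, 0.16 ± 0.13 for H2-Aa and 0.10 ± 0.12 for Cd74, none at an unadjusted p under 0.05. The difference in the female group thus rested on 1 of its 4 mice. Of 14 macrophage markers, 6 were higher and 1 lower at an unadjusted p under 0.05 in the same comparison, with none called. Without restrained female 4, 2 were higher at that p, where 5.78% of all genes were, and none was lower. The summed level of the 14 markers was 159 to 181 CPM in the other 3 restrained females and 151 to 162 CPM in controls.

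**Figure D2:**
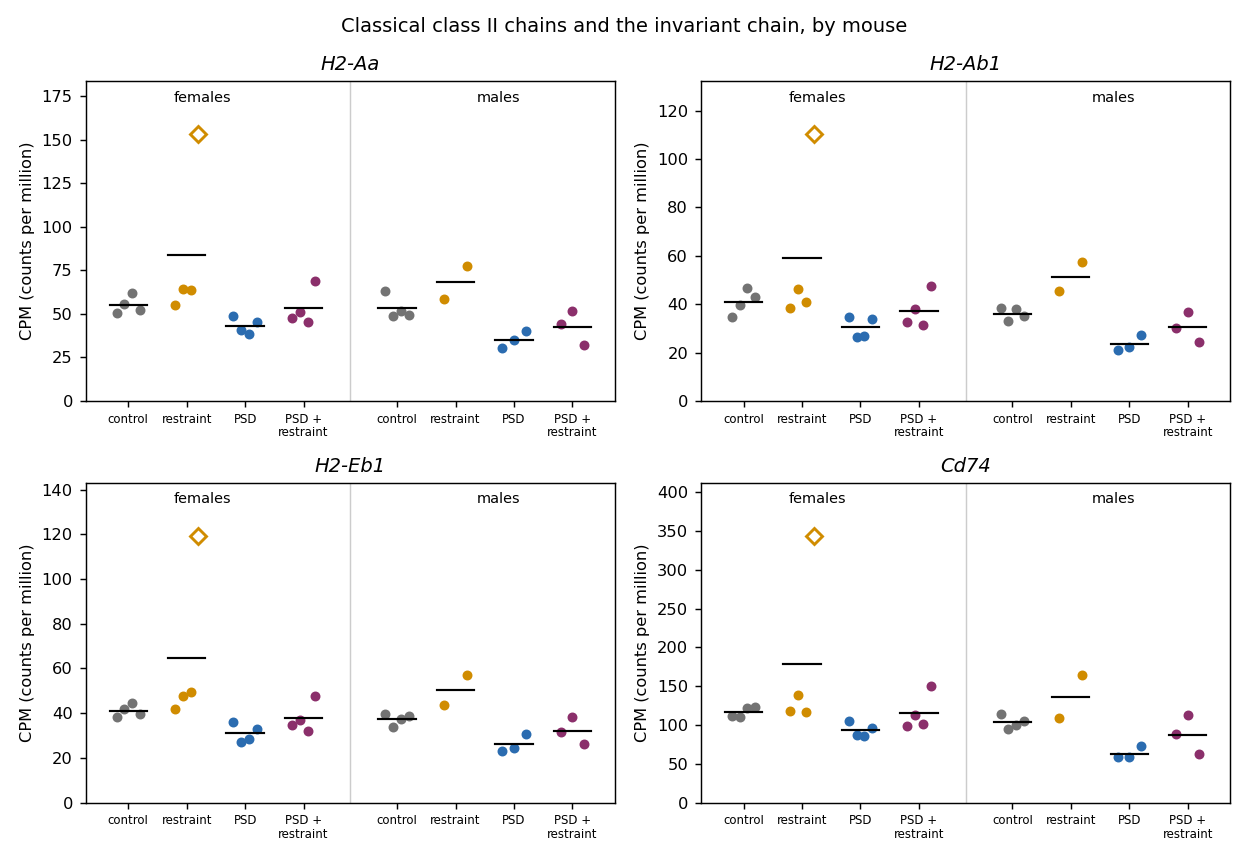
CPM of H2-Aa, H2-Ab1, H2-Eb1 and Cd74 in each mouse by sex and treatment, with bars for group means and an open diamond for restrained female 4. The diamond stands far above the other 27 mice in all 4 genes (343.7 CPM in Cd74), and male PSD mice lie below all male controls.

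In males, restraint was represented by mice 2 and 3 only. H2-Ab1 was at 45.5 and 57.4 CPM in them and at 38.2, 32.8, 38.1 and 35.3 in controls, so the groups did not overlap. H2-Eb1 was at 43.6 and 57.2 CPM against 39.8, 33.9, 37.2 and 38.9 in controls, also without overlap. H2-Aa had the third smallest p, with 58.7 and 77.6 CPM against 63.2, 48.7, 51.7 and 49.4 in controls, and there the groups overlapped. The genes without overlap were H2-Ab1 and H2-Eb1 upward, where 6.34% of all genes had this pattern, and H2-Ob downward (6.89% of all genes), with 0.310 and 0.439 CPM against 0.529 to 0.828.

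None of the 10 was called in males after restraint (0.296% of all 18271 genes were), 2 were at an unadjusted p under 0.05 and higher (3.01% of all genes), and DESeq2 called none. The median log2 fold change of the members was 0.35, with 9 of 10 higher (49.1% of all genes). It was 0.51 ± 0.14 (SE) for H2-Ab1 (edgeR adjusted p = 0.366), 0.43 ± 0.15 for H2-Eb1 (adjusted p = 0.636), 0.36 ± 0.17 for H2-Aa (adjusted p = 0.997) and 0.40 ± 0.19 for Cd74 (adjusted p = 1.0). Restrained male 3 had the highest level of all males in 8 of the 10 genes.

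After PSD alone the classical chains stood lower in both sexes, without an edgeR call in either. In PSD females H2-Ab1 was at 34.7, 26.5, 26.9 and 34.0 CPM against 34.5, 39.9, 46.7 and 43.1 in controls. H2-Eb1 was at 36.2, 27.1, 28.7 and 33 CPM, below all controls, and H2-Aa was at 48.8, 40.6, 38.5 and 45.1 CPM, also below all controls. Cd74 was at 105, 87.1, 85.4 and 96.6 CPM and was the other gene without overlap, which makes 3 of 10 members lower without overlap where 4.78% of all genes were.

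After PSD in females edgeR called no member (0.0277% of all genes were called), none was at an unadjusted p under 0.05, and DESeq2 called none. The log2 fold change was -0.42 ± 0.27 (SE) for H2-Ab1, -0.39 ± 0.26 for H2-Eb1, -0.34 ± 0.25 for H2-Aa and -0.31 ± 0.27 for Cd74, with edgeR adjusted p from 0.401 to 0.542. These standard errors come from a spread that all 4 female groups share. Without restrained female 4 the changes were the same to within 0.01, their standard errors were 0.12 to 0.14, and all 4 genes had an unadjusted p under 0.05 with edgeR adjusted p from 0.121 to 0.16. Without that mouse, 9.4% of all genes were lower at that unadjusted p. Of the 10 members 7 had a lower fitted level and 3 a higher one. The change was -0.16 ± 0.30 for Ciita, -0.11 ± 0.35 for H2-Ob, 0.03 ± 0.25 for H2-DMa, 0.19 ± 0.54 for H2-Oa and 0.21 ± 0.37 for H2-DMb2, and H2-DMb1 was within 0.01 of no change.

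In PSD males Cd74 was at 58.3, 58.7 and 72.9 CPM against 114, 95.5, 100.5 and 105 in controls. H2-Ab1 was at 21.1, 22.3 and 27.1 CPM and H2-Eb1 at 23, 24.5 and 30.6 CPM, all below the controls given above. H2-Aa, at 30.1, 34.7 and 40.2 CPM, was the fourth gene without overlap, where 5.73% of all genes were lower without overlap. Of the accessory genes H2-DMa was at 6.27, 6.49 and 7.23 CPM against 6.12 to 7.64 in controls, and Ciita at 2.66, 2.18 and 2.46 against 2.14 to 2.44, so neither lay below its controls.

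No member passed edgeR's adjusted threshold in PSD males (0.00547% of all genes did), 5 were at an unadjusted p under 0.05 and lower (4.34% of all genes), and DESeq2 called 4 of the 7 members to which it gave an adjusted p (0.483% of all genes). The edgeR log2 fold change was -0.71 ± 0.18 (SE) for Cd74 (adjusted p = 0.253), -0.61 ± 0.13 for H2-Ab1 (adjusted p = 0.181), -0.52 ± 0.13 for H2-Eb1 (adjusted p = 0.268) and -0.60 ± 0.15 for H2-Aa (adjusted p = 0.273). DESeq2's shrunken values for these 4 genes were -0.48, -0.47, -0.39 and -0.43, with DESeq2 adjusted p of 0.0108, 0.00333, 0.0304 and 0.0216. The fifth gene was H2-Oa, at -1.01 ± 0.42 with few counts behind it. For H2-DMa the change was -0.02 with a 95% interval of -0.31 to 0.27, and for Ciita 0.07 with an interval of -0.37 to 0.51. The other 3 genes stood at -0.61 ± 0.35 for H2-Ob, -0.22 ± 0.29 for H2-DMb2 and -0.14 ± 0.18 for H2-DMb1, none at an unadjusted p under 0.05, so 9 of 10 members had a lower fitted level. Whether the change differed between the genes was not tested.

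With both sexes in one model, PSD compared with control gave -0.51 ± 0.16 (SE) for H2-Ab1, -0.47 ± 0.16 for H2-Aa, -0.46 ± 0.16 for H2-Eb1 and -0.50 ± 0.18 for Cd74. In edgeR no member was called (0.671% of all 18936 genes were; adjusted p = 0.118 to 0.148 for these genes), 4 were at an unadjusted p under 0.05 and lower (8.81% of all genes), and DESeq2 called none. Without restrained female 4, which belongs to neither group but enters the estimate of the spread, H2-Eb1 (-0.45 ± 0.10, edgeR adjusted p = 0.0254), H2-Ab1 (-0.50 ± 0.11, adjusted p = 0.0343) and H2-Aa (-0.46 ± 0.11, adjusted p = 0.0379) were called where 0.729% of all genes were, and Cd74 stood at an adjusted p of 0.0513. A test of whether the PSD response differed between the sexes called no member and had none at an unadjusted p under 0.05 in edgeR, and DESeq2 called none. The difference of females from males was 0.40 for Cd74 with a 95% interval of -0.35 to 1.14, and 0.39 with an interval of -0.06 to 0.85 without restrained female 4.

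After the combined treatment, PSD + restraint, the groups overlapped in every gene in both sexes. In females Cd74 was at 98.9, 113, 102 and 151 CPM and H2-Ab1 at 32.6, 37.8, 31.4 and 47.4 CPM, beside the control levels given above. Ciita, H2-Ab1 and H2-DMa had the smallest p, and no member was near the threshold (edgeR adjusted p from 0.827 to 0.998). Ciita was at 1.86, 3.55, 2.47 and 3.37 CPM against 3.13, 4.12, 2.65 and 2.91 in controls, and H2-DMa at 7.08, 8.29, 6.89 and 9.62 against 7.29, 6.97, 8.09 and 7.30. None of the 10 was called in females where 2.2% of all genes were, none was at an unadjusted p under 0.05, and DESeq2 called none of the 8 members with an adjusted p. The log2 fold change of Cd74 was 0.00 with a 95% interval of -0.57 to 0.57, which narrowed to -0.24 to 0.25 with restrained female 4 left out of the shared spread.

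In males the combined treatment gave Cd74 levels of 88.3, 113 and 62.3 CPM and H2-Aa levels of 44.3, 51.4 and 32.2 CPM. H2-Ab1 was at 30.2, 36.6 and 24.2 CPM and H2-Eb1 at 31.6, 38.5 and 26.4 CPM, so PSD + restraint male 3 was the lowest of its group in each of these genes and the other 2 lay nearer the controls. The call was made for no member (2.56% of all genes had it), none was at an unadjusted p under 0.05, and DESeq2 called none. The log2 fold change was -0.31 ± 0.15 (SE) for H2-Aa (edgeR adjusted p = 0.324), -0.24 ± 0.13 for H2-Ab1 (adjusted p = 0.377) and -0.21 ± 0.13 for H2-Eb1 (adjusted p = 0.453).

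The group with both treatments can also be set against each treatment alone. Among restrained females, mice with PSD were lower than mice without it in all 10 genes, where 49.6% of all genes were lower, with a median log2 fold change of -0.62. By edgeR none was called (0.0332% of all genes were), 4 were at an unadjusted p under 0.05 and lower (8.49% of all genes), and DESeq2 called none of the 7 members with an adjusted p. H2-Eb1 stood at -0.77 ± 0.25 (SE, edgeR adjusted p = 0.236), H2-Aa at -0.65 ± 0.25 (adjusted p = 0.28) and H2-Ab1 at -0.66 ± 0.27 (adjusted p = 0.298). Leaving out restrained female 4, the median was -0.14 with 3 genes higher, and H2-Eb1 stood at -0.29 ± 0.12, H2-Aa at -0.19 ± 0.13 and H2-Ab1 at -0.16 ± 0.14. In that fit 1 member was still lower at an unadjusted p under 0.05, where 6.23% of all genes were. Most of the difference was thus again that 1 mouse.

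Among restrained males the 3 mice with PSD lay below both mice without it in H2-Aa, H2-Ab1 and H2-Eb1, a pattern that 13.7% of all genes had. The log2 fold change was -0.75 ± 0.15 (SE) for H2-Ab1 (edgeR adjusted p = 0.205), -0.64 ± 0.16 for H2-Eb1 (adjusted p = 0.263) and -0.67 ± 0.18 for H2-Aa (adjusted p = 0.278). In edgeR there was no call (0.00547% of all genes had one), 4 were at an unadjusted p under 0.05 and lower (5.39% of all genes), and DESeq2 called these 3 genes (0.757% of all genes).

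Restraint after PSD compared with PSD alone gave a median log2 fold change of 0.085 in females and 0.30 in males. In females no member was called (0.941% of all genes were) or at an unadjusted p under 0.05, and DESeq2 called none. With restrained female 4 left out of the shared spread, Cd74 (0.32 ± 0.12, SE), H2-Aa (0.30 ± 0.12) and H2-Eb1 (0.28 ± 0.12) were at an unadjusted p under 0.05, with edgeR adjusted p from 0.31 to 0.418. Without that mouse, 5.04% of all genes were higher at that unadjusted p. In males no member was called (0.285% of all genes were), 3 were at an unadjusted p under 0.05 and higher (5.57% of all genes), namely H2-Ab1 at 0.37 ± 0.14 (SE), Cd74 at 0.47 ± 0.19 and H2-Eb1 at 0.31 ± 0.14 (edgeR adjusted p from 0.38 to 0.484), and DESeq2 called none of the 7 members with an adjusted p. The interaction, which tests whether the effect of restraint differed after PSD, called no member and no other gene in either sex or in all mice by edgeR, had no member at an unadjusted p under 0.05, and called none by DESeq2. For Cd74 it was -0.31 with a 95% interval of -1.11 to 0.49 in females and 0.07 with an interval of -0.51 to 0.66 in males. The female value turned to 0.22 with an interval of -0.15 to 0.58 without restrained female 4, and the median of the 10 members from -0.37 to 0.09. These comparisons share groups with the ones above, so they are not independent of them.

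**Figure D3:**
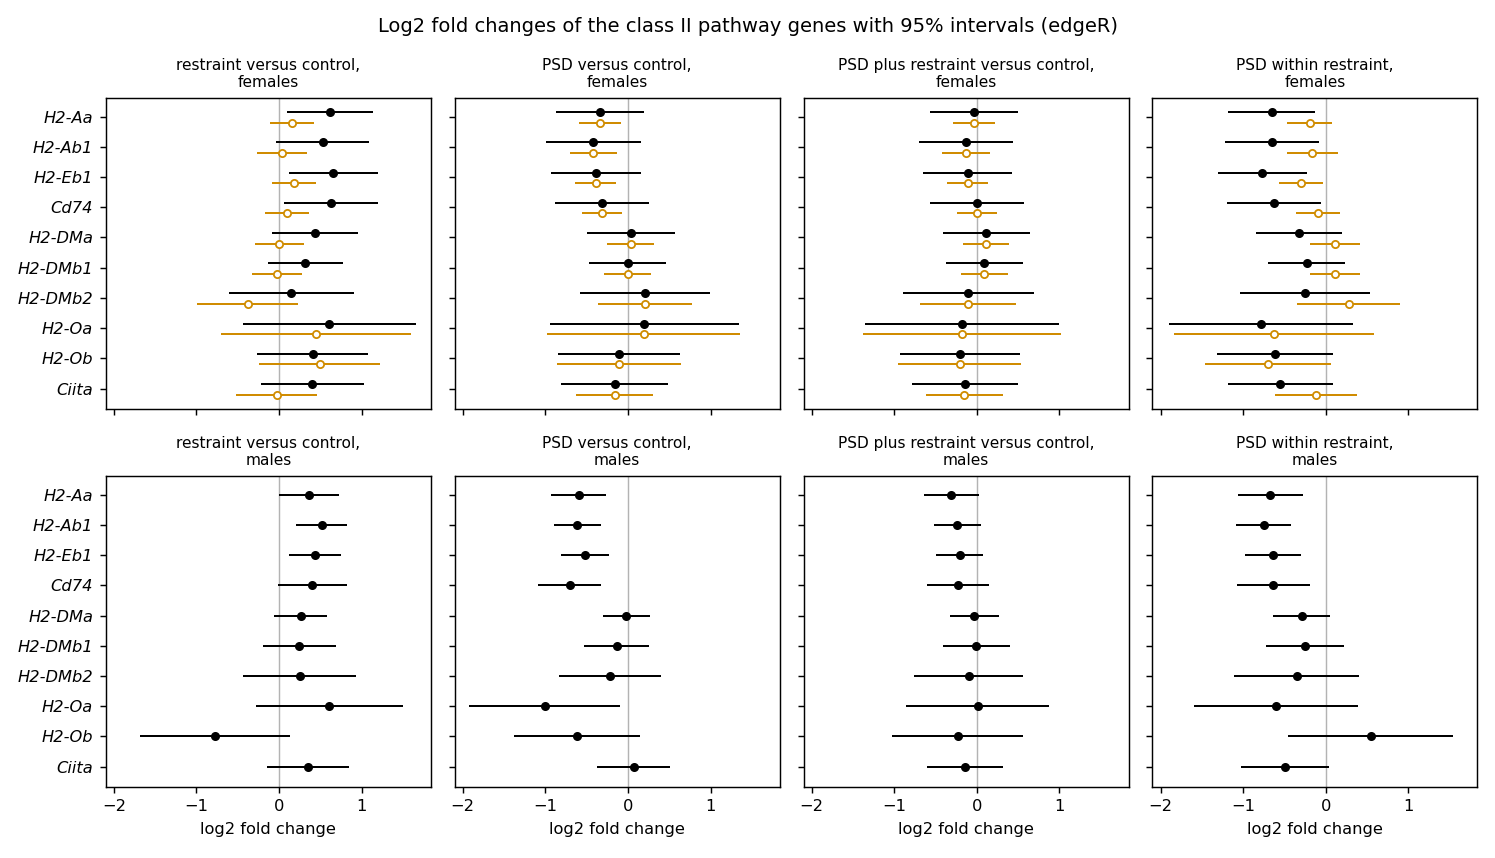
Log2 fold changes (edgeR) with 95% intervals of the 10 genes in 4 comparisons, females above and males below; open orange points in females are values without restrained female 4. The orange points for restraint lie near 0 (0.10 for Cd74), and the male PSD values of H2-Aa, H2-Ab1, H2-Eb1 and Cd74 lie between -0.71 and -0.52.

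Over both sexes, restraint gave 0.56 ± 0.16 (SE) for H2-Eb1 (edgeR adjusted p = 0.0778), 0.51 ± 0.17 for H2-Ab1, 0.49 ± 0.16 for H2-Aa and 0.51 ± 0.18 for Cd74. Over all mice edgeR called no member for restraint (1.14% of all genes were), 5 were at an unadjusted p under 0.05 and higher (5.61% of all genes), and DESeq2 called H2-Eb1 alone (1.28% of all genes). H2-Eb1 was also called by edgeR without restrained female 1 (0.65 ± 0.16, adjusted p = 0.0307; 0.961% of all genes). Omitting restrained female 4, the median of the members was 0.17 and H2-Eb1 stood at 0.28 ± 0.10 (adjusted p = 0.259). PSD within restraint over both sexes gave -0.73 ± 0.17 for H2-Eb1 (adjusted p = 0.0874), -0.69 ± 0.17 for H2-Ab1 and -0.67 ± 0.17 for H2-Aa (both adjusted p = 0.145). For this comparison edgeR called no member (0.0951% of all genes were), 5 were at an unadjusted p under 0.05 and lower (7.54% of all genes), and DESeq2 called H2-Aa, H2-Ab1 and H2-Eb1 (0.382% of all genes). By edgeR H2-Eb1 was called without restrained female 2 (-0.80, adjusted p = 0.035; 0.306% of all genes). Omitting restrained female 4, these 3 genes stood at -0.44 ± 0.11 (H2-Eb1), -0.42 ± 0.13 (H2-Ab1) and -0.39 ± 0.12 (H2-Aa), with edgeR adjusted p of 0.173 to 0.293. In that fit 4 members were lower at an unadjusted p under 0.05, where 5.24% of all genes were. Restraint within PSD called none (2.01% of all genes), with Cd74 alone at an unadjusted p under 0.05 and higher (6.6% of all genes), and the combined treatment against control called none (5.46% of all genes), with no member at that p; DESeq2 called none in either. With restrained female 4 out of the shared spread, 4 members were higher at an unadjusted p under 0.05 for restraint within PSD (6.7% of all genes), namely Cd74 at 0.38 ± 0.13, H2-Ab1 at 0.32 ± 0.12, H2-Aa at 0.30 ± 0.11 and H2-Eb1 at 0.29 ± 0.10, with edgeR adjusted p from 0.106 to 0.178.

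Females and males were compared over all mice with treatment in the model. Cd74, Ciita and H2-DMb1 were higher in females, 3 of 10 members where 7.11% of all genes were called higher and 14.9% were called in either direction. The log2 difference of females from males was 0.37 ± 0.13 (SE) for Cd74 (edgeR adjusted p = 0.0274), 0.41 ± 0.14 for Ciita (adjusted p = 0.0264) and 0.35 ± 0.11 for H2-DMb1 (adjusted p = 0.0133), and DESeq2 called the same 3 genes (13.1% of all genes). With H2-Ab1 (0.26 ± 0.12, adjusted p = 0.0973), 4 members were higher at an unadjusted p under 0.05, as were 22.3% of all genes. The lowest, median and highest levels of H2-DMb1 were 4.61, 5.82 and 12.0 CPM in 16 females and 3.41, 4.89 and 6.95 in 12 males. For Ciita they were 1.86, 2.98 and 7.53 CPM in females and 1.30, 2.37 and 3.56 in males, and for Cd74 85.4, 112 and 344 CPM in females and 58.3, 98.0 and 164 in males, so the sexes overlapped in each gene.

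The calls changed when certain single mice were left out, with differences of 0.27 to 0.40 in these 3 genes. Leaving out restrained female 4, only Ciita was called (0.32 ± 0.11; 14.6% of all genes were called), because Cd74 (0.27 ± 0.09, adjusted p = 0.0217) and H2-DMb1 (0.28 ± 0.09, adjusted p = 0.0109) passed on p but not on size. Without PSD + restraint male 3 only Ciita was called (14.6% of all genes), with Cd74 at 0.33 (adjusted p = 0.0522) and H2-DMb1 at 0.31 (adjusted p = 0.0254). Without PSD male 2 only Ciita and H2-DMb1 were (14.5%), with Cd74 at 0.35 (adjusted p = 0.051). Without restrained male 2 no member was, with Cd74 at 0.33 (adjusted p = 0.06), Ciita at 0.36 (adjusted p = 0.0602) and H2-DMb1 at 0.31 (adjusted p = 0.0338), which passed on p but not on size. In home cage controls alone no member was called between the sexes (10.7% of all genes were), none was at an unadjusted p under 0.05, and DESeq2 called none. There Ciita was at 0.46 ± 0.27, H2-DMb1 at 0.28 ± 0.21 and Cd74 at 0.17 ± 0.24 (edgeR adjusted p = 0.282, 0.416 and 0.707). Without restrained female 4, which enters only the spread, Ciita stood at 0.46 ± 0.21 with a 95% interval of 0.03 to 0.89 (adjusted p = 0.149). It was the only member at an unadjusted p under 0.05, where 14.3% of all genes were higher at that p. Of the tests of whether restraint or the combined treatment acted differently in the sexes, none called a member or any other gene by edgeR, and DESeq2 called no member. H2-Ob alone was at an unadjusted p under 0.05, for restraint (2.35% of all genes were higher at that p), with a difference of 1.18 and a 95% interval of 0.08 to 2.29 on low counts. Leaving out restrained female 4, the median difference of the members in the restraint response turned from 0.12 to -0.27, and H2-Ab1 stood at -0.49 ± 0.22 (SE, edgeR adjusted p = 1.0).

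The classical chains followed the invariant chain from mouse to mouse. On log2 CPM, Pearson's r with Cd74 was 0.983 for H2-Aa, 0.98 for H2-Ab1 and 0.972 for H2-Eb1 in 16 females, and 0.974, 0.973 and 0.98 in 12 males. Spearman's rho was 0.932, 0.947 and 0.891 in females and 0.958, 0.951 and 0.965 in males. The permutation p of each r was 1e-05, the smallest that 100000 permutations can give, and the adjusted p over 18 relations was 3e-05. Without the 2 mice farthest from the median of Cd74, r stayed between 0.908 and 0.962 in these 6 relations. The mice of a sex share treatments, so these values include differences between treatment groups.

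The ratio of each chain to Cd74 varied little. H2-Aa per Cd74 lay between 0.425 and 0.592 (CPM over CPM) in all 28 mice, a 1.39-fold range, while the CPM of H2-Aa itself spanned 5.08-fold. The range was 1.38-fold for H2-Ab1 and 1.37-fold for H2-Eb1. Restrained female 4 lay on the same line as the other mice, with 153 CPM of H2-Aa beside 343.7 CPM of Cd74. For the accessory genes the ratio ranged more widely, at 2.13-fold for H2-DMa, 2.18-fold for H2-DMb1 and 2.42-fold for Ciita.

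H2-DMa, H2-DMb1 and Ciita moved with Cd74 in females mainly through 2 mice. Their r was 0.895, 0.882 and 0.81 in 16 females (permutation adjusted p = 0.00322, 0.00322 and 0.00489), and it was 0.298, 0.263 and 0.429 without restrained female 4 and PSD + restraint female 4, so the relation rests on those mice. Spearman's rho was 0.529, 0.556 and 0.494 (permutation adjusted p = 0.069, 0.0557 and 0.0813). In 12 males r was 0.75 for H2-DMa, 0.783 for H2-DMb1 and 0.548 for Ciita (permutation adjusted p = 0.00661, 0.00489 and 0.0748), with rho of 0.678, 0.594 and 0.14 (permutation adjusted p = 0.0424, 0.0738 and 0.749), and without PSD male 1 and restrained male 3 r was 0.547, 0.699 and 0.536. Of the low genes H2-Oa followed Cd74 in males (r = 0.811, rho = 0.804, permutation adjusted p = 0.00322 and 0.00697; r = 0.8 without those mice), and H2-DMb2 and H2-Ob did not pass the test in either sex.

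**Figure D4:**
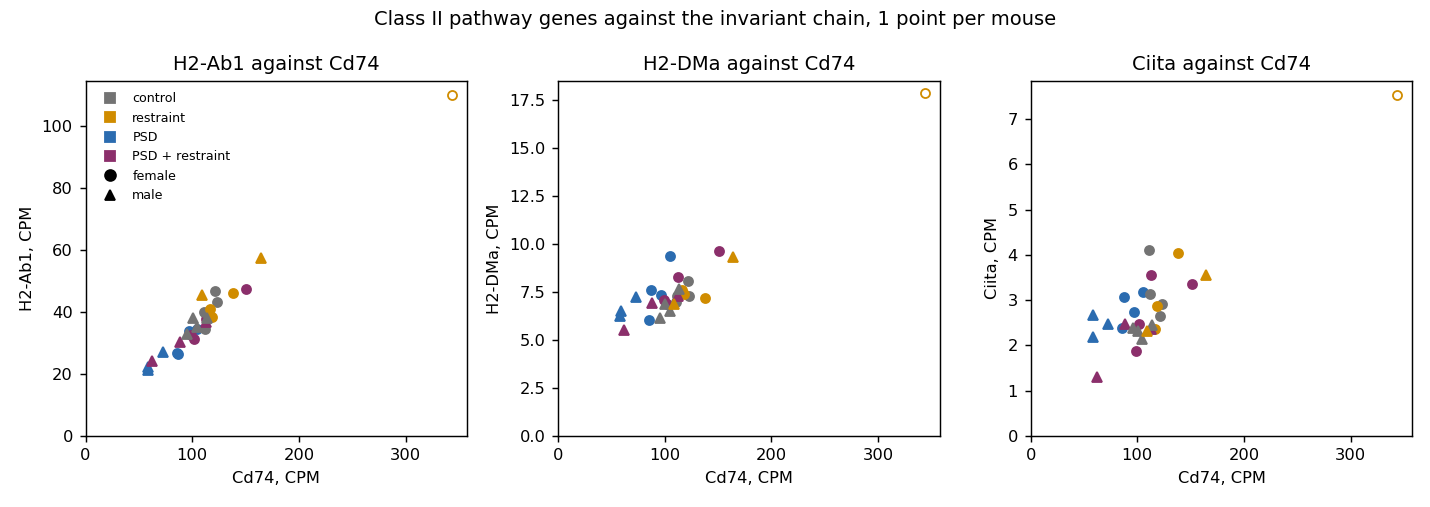
CPM of H2-Ab1, H2-DMa and Ciita against CPM of Cd74 in 28 mice, coloured by treatment, with circles for females, triangles for males and an open circle for restrained female 4. H2-Ab1 follows Cd74 along 1 line in both sexes (r = 0.98 in females), whereas for H2-DMa and Ciita the points other than restrained female 4 form a broad cloud.

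Genes most like the pathway were named by their Pearson r with the mean log2 CPM of the 10 members over 28 mice, after subtracting the mean of each sex, among 15455 genes. The 10 highest were Tgtp1 (0.806), Gvin1 (0.782), H2-Q5 (0.766), Gbp4 (0.748), Ifi47 (0.747), Pld4 (0.745), Ptprc (0.741), H2-Q7 (0.74), H2-Q4 (0.724) and H2-K1 (0.715). Tgtp1, Gvin1, Gbp4 and Ifi47 are GTPases known to be induced by interferon, H2-K1, H2-Q4, H2-Q5 and H2-Q7 are class I genes, and Ptprc encodes CD45, found on all leukocytes. Tgtp1 was at 54.8 CPM in restrained female 4 and at 10.7 to 21.8 in the other 27 mice, and Gbp4 at 17.3 CPM against 3.41 to 7.83. Without that mouse r was 0.593 for Tgtp1 and 0.513 for Gbp4, Gvin1 (0.649) and Ptprc (0.643) stayed among the 10 highest, and the new leading genes were Parvb (0.741), Cbln4 (0.716) and Kcnd3 (0.69). This ranking is a description, since treatment and 1 mouse both shape it. The mean also weighs all 10 members alike, including the 2 with the fewest counts. H2-Oa rested on 1 to 22 counts per mouse and its log2 CPM ran from -3.13 to -0.63. H2-Ob rested on 3 to 39 counts and its log2 CPM ran from -2.16 to -0.17. Their part in the ranking was not tested.

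Other genes of the pathway were read from lists. Of 7 proteins of the complex on the X and Y boxes (RFX, NF-Y and Creb1), none was called in any comparison by sex, and Nfyc had the smallest p in PSD + restraint males at -0.29 ± 0.08 (SE, edgeR adjusted p = 0.0895) and in PSD + restraint females at -0.21 ± 0.07 (adjusted p = 0.115). Of 7 genes of peptide supply none was called in a treatment comparison by sex. Ctss, the protease cathepsin S, which trims the invariant chain, was at 20.96 to 24.5 CPM in PSD males and 30.1 to 39.7 in male controls, without overlap, and its log2 fold change was -0.56 ± 0.10 (edgeR adjusted p = 0.0916). In females the same comparison gave 0.08 ± 0.12 for Ctss (adjusted p = 0.769), and the difference between the sexes was 0.64 ± 0.17 (adjusted p = 0.301). Lgmn, the endosomal protease legumain, passed the adjusted p but not the size limit in PSD + restraint females (0.26 ± 0.06, adjusted p = 0.0316).

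Of the interferon gamma route, 8 of 10 genes were tested and none was called in a comparison by sex. Il10ra, the interleukin 10 receptor chain, was called for restraint within PSD over all mice (0.45 ± 0.11, edgeR adjusted p = 0.02), where 2.01% of all genes were. Of 10 class I genes none was called for a treatment in either sex, and 5 were higher at an unadjusted p under 0.05 in restrained females, where 5.6% of all genes were, led by H2-D1 (0.38 ± 0.10, adjusted p = 0.152). Without restrained female 4, H2-D1 alone was (0.23 ± 0.07, adjusted p = 0.257; 5.78% of all genes). Of turnover and co-stimulation genes 4 of 5 were tested and none was called by sex. H2-Eb2, a relative of H2-Eb1, was not called for any treatment. It was at 11 ± 4.42 CPM (SD, n = 4) in PSD females and 8.05 ± 2.78 in female controls, and was called lower in females than in males over all mice (-0.49 ± 0.18, adjusted p = 0.0388), where 7.79% of all genes were, but not without restrained female 4 (-0.47, adjusted p = 0.0519).

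Markers of the cells that may carry class II were set beside the members. The summed level of 14 macrophage markers was 151 to 162 CPM in female controls, 160 to 217 in PSD females and 179 to 212 in PSD + restraint females. In males it was 169 to 192 CPM in controls, 166 to 172 in PSD mice and 191 to 195 in PSD + restraint mice. Cd68, a lysosomal protein of macrophages, and the complement gene C1qa rose in PSD + restraint females (0.57 ± 0.10 and 0.46 ± 0.12, edgeR adjusted p = 0.0059 and 0.0476), 2 of 14 markers where 1.53% of all genes were called higher. Cd68 also rose with PSD among restrained females (0.69 ± 0.10, adjusted p = 0.0189), where 0.0332% of all genes were called, and was not called without restrained female 4 (0.67, adjusted p = 0.123). No macrophage marker was called in PSD males, where the 14 markers had a median log2 fold change of -0.07 beside -0.56 for the 10 class II genes. Ptprc had the smallest p (0.00736, edgeR). At an unadjusted p under 0.05, 1 marker was lower, where 4.34% of all genes were.

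Dendritic cell markers summed to 115 to 159 CPM in female controls and 93.0 to 151 in PSD females, and to 66.8 to 124 CPM in male controls and 90.95 to 97.3 in PSD males, so the ranges overlapped. These sums follow the most abundant markers and say little about scarce ones such as Flt3. Of the 9 markers, 7 were tested, and Itgae alone was called by sex (-1.33 ± 0.27 in PSD + restraint males, adjusted p = 0.0228, edgeR), where 2.56% of all genes were. B cell markers summed to 8.71 to 12.5 CPM in male controls and 11.2 to 11.8 in PSD males, with none called by sex. T and NK cell markers summed to 1.67 to 2.89 CPM in male controls and 2.12 to 2.53 in PSD males, with none called by sex. Markers of the neurointermediate lobe, which a dissection can include to a varying degree, had higher sums after PSD alone. They summed to 722 to 1086 CPM in female controls and 1131 to 2813 in PSD females, without overlap, and to 252 to 1092 CPM in male controls and 1108 to 1602 in PSD males, also without overlap. After PSD + restraint the sums were 1073 to 1793 CPM in females, overlapping controls, and 1150 to 2070 CPM in males, without overlap. These sums, too, follow the most abundant of the markers. Restrained female 4 had 696 CPM of the neurointermediate lobe markers, rank 27 of 28. Folliculostellate cell markers summed to 50.5 to 61.0 CPM in female controls and 50.7 to 104 in PSD females, and to 44.9 to 54.1 in male controls and 44.1 to 48.6 in PSD males. The part of tissue composition in the lower class II levels after PSD was not tested.

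**Figure D5:**
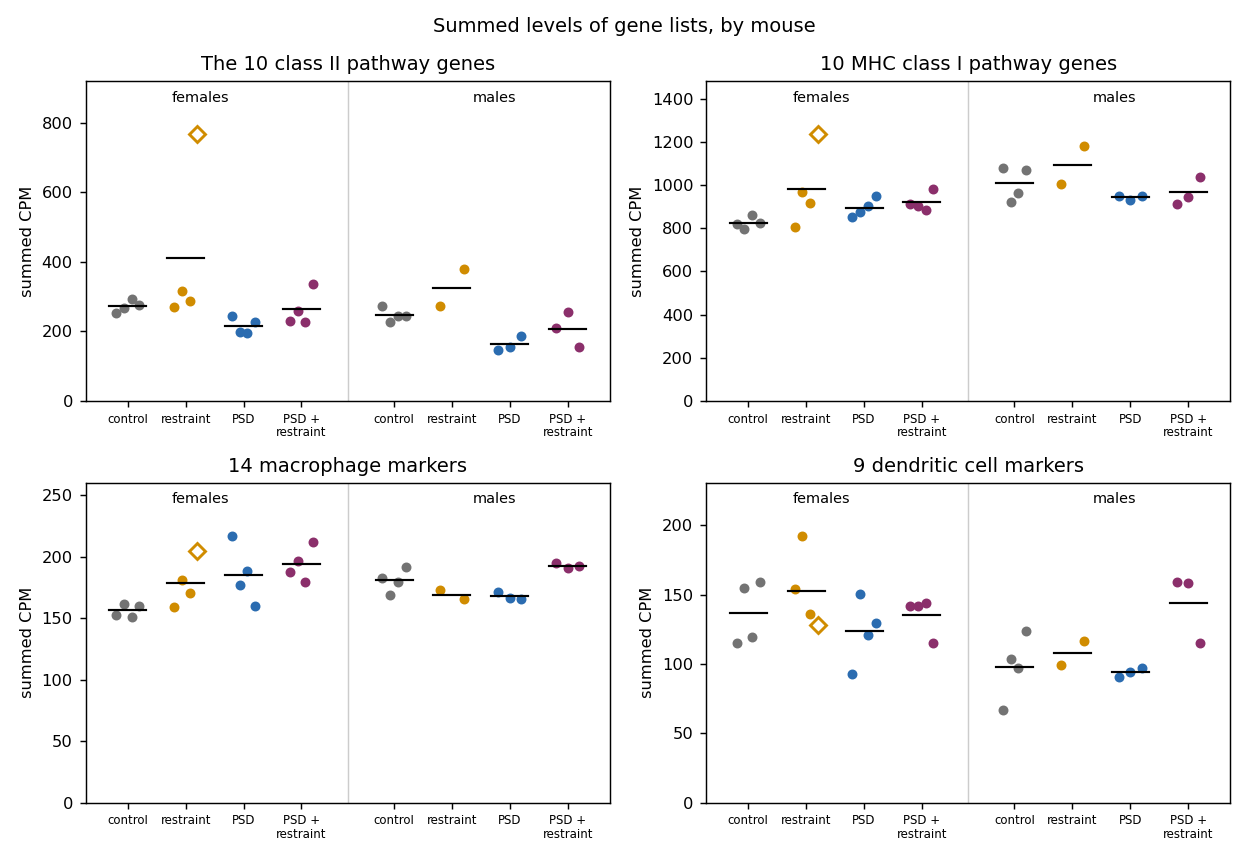
Summed CPM per mouse of the 10 class II pathway genes, 10 class I pathway genes, 14 macrophage markers and 9 dendritic cell markers, by sex and treatment, with bars for group means and an open diamond for restrained female 4. The diamond is the highest mouse for class II (766.5 CPM, with the next mouse at 378.6) and class I (1236 CPM) and stands inside the range of the other females for the macrophage (204 CPM) and dendritic cell (128 CPM) markers. Each sum follows the most abundant genes of its list.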

How the data were processed

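Whole pituitary RNA of 28 mice was analysed by poly(A), strand-marking, paired-end RNA-seq. The authors aligned the reads to mm10 with MapSplice, assigned them to UCSC gene models with HTSeq 0.9.1 (intersection-nonempty) and deposited raw counts per gene and mouse, which were used here. A second deposited table of normalized counts was not used. Reads shared by near copies or overlapping genes may be lost or misassigned by such counting, which lowers or blurs H2-DMb1 and H2-DMb2. Totals were 14024465 to 52948531 counts per mouse. The 37 pairs of mice within groups differed by more than counting noise (lowest chi-square per degree of freedom 6.43).

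Genes passing filterByExpr (18059 in females, 18271 in males, 18936 in all mice) were tested in edgeR 4.0.16 (R 4.3.3) with TMM factors and the quasi-likelihood F test. The model held PSD, restraint and their interaction in each sex, plus sex over all mice, and a model of group means tested differences between sexes. Calls needed a Benjamini-Hochberg adjusted p no higher than 0.05 and a log2 change no smaller than 0.322 up or down. CPM uses TMM factors, and log2 CPM a prior count of 2. CPM per kb uses exon lengths of GENCODE M21. Alternatives were DESeq2 1.42.0 with the model and limits of the study (its methods name DESeq2 1.16.1) and DESeq2 size factors in edgeR. The DESeq2 calls left out the study's filter on mean TPM of at least 1. Other alternatives were further filters on low counts, including mean TPM of at least 1 from the lengths used here, and no fold limit. The replicate number was also used as a block, and each mouse was left out in turn. Samples were grouped by their labels. The 10 genes are all named, with per-mouse values of the called genes or else the 3 with the smallest p in each comparison. Genes of the lists are named where called or where their p is the smallest of the list. The members, lists and tests were chosen with earlier results of these data known, and the motif TGATTGG and its spacing after the windows were read. The scripts were tested on simulated data before use.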

Additional observations from a re-analysis of the deposited data

Results flagged for a closer look

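In groups of 4 mice, a mouse was marked where its gap to the nearest other exceeded Dixon's 95% critical share of the group's range, which chance does in about 1 of 20 groups. It was applied to the 10 genes in the 5 groups of 4, and 7 of 50 were marked. Of these, 6 are the same mouse, restrained female 4, which had 153 CPM of H2-Aa, 110.2 of H2-Ab1, 119.2 of H2-Eb1, 343.7 of Cd74, 17.87 of H2-DMa and 2.035 of H2-DMb2. Female control 4 was marked in H2-Oa, with 0.5133 CPM against 0.181 to 0.206 in the other 3 controls, a gene of few counts.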

How the results depend on the processing

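The number of class II genes called was unchanged or within 1.5 times the value given in 628 pairs of comparison and alternative, and moved further in 10. With DESeq2 it was 4 for PSD in males, 3 for PSD within restraint in males, 3 for PSD within restraint over all mice and 1 for restraint over all mice, each 0 in edgeR. Leaving out 1 mouse at a time gave 0 to 3 called for females against males (0 without restrained male 2, 1 without restrained female 4 or PSD + restraint male 3), 0 to 3 for PSD over all mice (3 without restrained female 4), 0 to 1 for restraint over all mice (1, H2-Eb1, without restrained female 1) and 0 to 1 for PSD within restraint over all mice (1, H2-Eb1, without restrained female 2); the cause was not tested. Of single values with an unadjusted p under 0.05, none of 1081 changed direction, and of the others 214 of 4929 did. Restraint leaves 1 male where a restrained male is left out, which is then assumed to vary like the other groups.

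With the replicate number as a block the number of class II genes called was the same in every comparison (0 for restraint in females). The numbers do not pair the mice: of 39 pairs with the same number, 10 had a correlation of deviations over 0.1 (range -0.426 to 0.46), and 6 of 28 mice correlated best with a mouse of their own number. Depth limited H2-Oa (1 to 22 counts per mouse) and H2-Ob (3 to 39). With a filter on mean TPM of at least 1, these and Ciita were not tested. Leaving out restrained female 4 was also applied to the counts of macrophage and class I genes, to the other genes named from lists, and to class II genes at an unadjusted p under 0.05 for restraint within PSD over all mice, a choice made after the data were seen. The 3 counts went from 6 to 2, from 5 to 1 and from 1 to 4. The same was done for class II genes lower at that p for PSD within restraint, where the count went from 4 to 1 in females and from 5 to 4 over all mice. Of the named genes Cd68 among restrained females (0.67) and H2-Eb2 between the sexes (-0.47) were no longer called.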
